A study of Mus musculus with 8 samples.

Results

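Prolif Ly is the class of proliferating lymphocytes that the authors named in single-cell RNA sequencing of mouse kidney. Its members are all cells whose deposited class name is Prolif Ly, which gave 228 of 77393 cells. Of these, 152 came from Control kidneys and 76 from kidneys after unilateral ureteric obstruction (UUO), an operation that ties off 1 ureter and leaves that kidney inflamed and scarred.

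Lymphocytes rest for most of their life and divide when their antigen receptor or growth factors such as interleukin-2 call on them. A dividing lymphocyte enlarges and makes more RNA before it splits into daughter cells, which is how a clone expands in injured tissue. In single-cell data such cells tend to be grouped by the genes of DNA replication and mitosis, so 1 class of this kind can hold T, B and natural killer cells together. Mki67 (the Ki-67 antigen of cycling cells), Top2a (the topoisomerase that untangles chromosomes) and Stmn1 (stathmin, which regulates microtubules) are its usual markers. Gene-level counts were not analysed here, so the name of the class was not checked against these markers.

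The samples were 6 titled Control and 2 titled UUO, all of whole kidney from C57BL/6 mice aged 7 weeks, and killing took place 7 days after ligation of the left ureter. The labels give every sample the same treatment text, so Control samples were told from UUO by title and disease label only, and whether Control animals had a sham operation is not stated in them. No label ties samples to separate animals, so p-values measure the spread between these samples, which could be technical. The libraries held 2263 to 18393 cells and 4375942 to 56755823 UMIs (unique molecular identifiers, each standing for 1 captured transcript). The cell numbers per class in Controls 3 and 4 did not differ beyond p = 0.0509 (chi-square test), where the other 14 Control pairs gave at most 4.09e-41. Both were therefore pooled as 1 sample, leaving n = 5 for Control and n = 2 for UUO.

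One library held most of the class on the Control side. Control 5 contributed 114 Prolif Ly cells, which is 50% of the class, Control 6 contributed 21, and Controls 1 to 4 contributed 2, 7, 2 and 6. UUO 1 and UUO 2 contributed 38 each. The group comparisons are therefore given with and without Control 5. Of the 228 cells, 27 had a barcode that also occurs in another library, but none of these shared both UMIs and genes with its namesake, and 0 barcodes were shared between Prolif Ly cells of different libraries.

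The first comparison was whether obstructed kidneys held more proliferating lymphocytes among all their cells. Prolif Ly made up 0.207% (0.146 to 0.283) of the cells in UUO 1 and 0.294% (0.208 to 0.403) in UUO 2, with exact Clopper-Pearson 95% intervals that cover counting error only. The Control shares were 0.0556% in Control 1, 0.109% in Control 2, 0.129% in the pooled Controls 3 and 4, 0.154% in Control 6 and 0.705% (0.582 to 0.846) in Control 5. Both UUO samples lay above every Control sample except Control 5, which lay far above both.

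The group means were 0.250% ± 0.0617 (SD, n = 2) in UUO and 0.230% ± 0.268 (SD, n = 5) in Control. On the log2 odds scale, where a share is turned into its odds, UUO minus Control was 0.59 (95% interval -1.07 to 2.26) and did not pass (limma adjusted p = 0.550 over 28 classes), with a two-sided exact permutation p of 0.571. In that fit 50% of all classes were called at an adjusted p under 0.05. The sign was not stable: edgeR with TMM scaling gave -0.30, and a fit of Control 5, Control 6, UUO 1 and UUO 2, the 4 libraries that hold more than 10000 cells, gave -0.42.

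Without Control 5 the Control mean was 0.112% ± 0.0417 (SD, n = 4), and the odds of Prolif Ly in UUO were 2.18 times those in Control. The log2 odds difference was then 1.12 (-0.61 to 2.85). It did not pass in limma (adjusted p = 0.298, against 57.1% of all classes called). Control 5 was the only Control sample above UUO, so leaving it out fixed that the groups no longer overlapped. The exact permutation p of 0.0667, the smallest that 4 against 2 samples can give, follows from that choice and is no separate support.

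**Figure D1:**
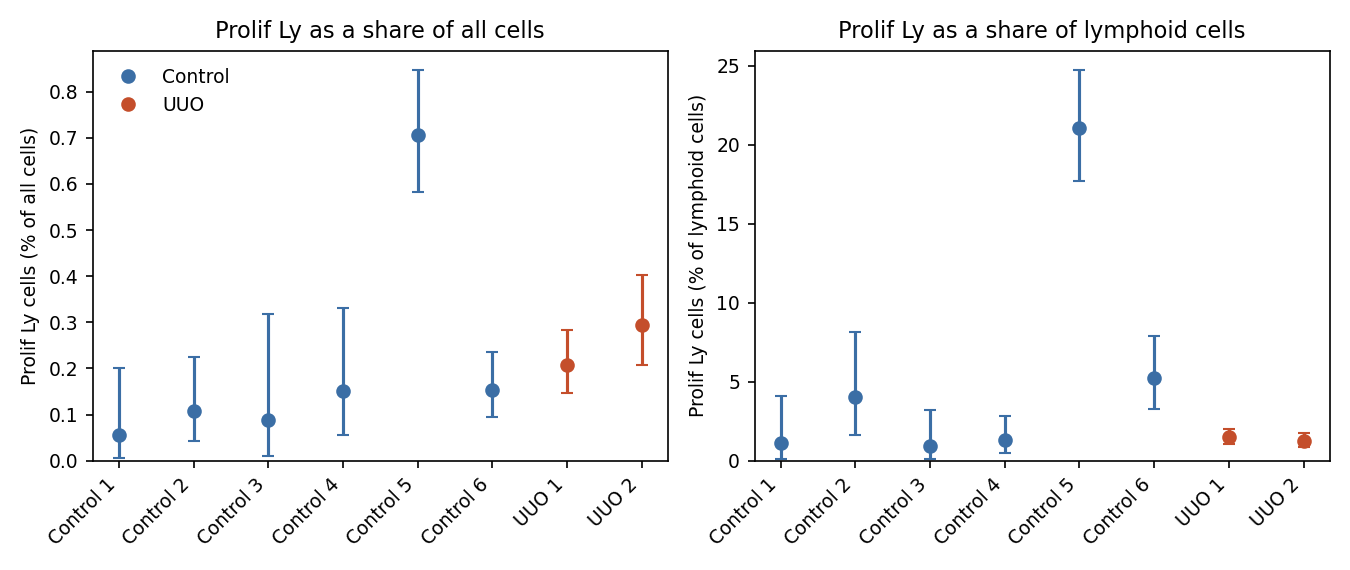
Prolif Ly cells as a percentage of all cells (left) and of lymphoid cells (right) in each of the 8 libraries; points are shares and bars are exact 95% binomial intervals (counting error only). Control 5 stands at 0.705% and 21.03%, and the UUO samples lie above the other Controls on the left but among the lowest on the right.

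The UUO libraries held 2575 and 2998 lymphoid cells and the Control libraries 173 to 542, so the share of lymphocytes labelled as proliferating is a separate measure. Among the 9 lymphoid classes together, Prolif Ly made up 1.48% of the cells in UUO 1 and 1.27% in UUO 2. In the Control samples they made up 1.14% in Control 1, 1.17% in the pooled Controls 3 and 4, 4.05% in Control 2, 5.24% in Control 6 and 21.03% in Control 5. Both UUO samples sat just above the lowest pair of Control samples and below the other 3.

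The means were 1.37% ± 0.147 (SD, n = 2) in UUO and 6.53% ± 8.31 (SD, n = 5) in Control. The log2 odds difference was -1.56 (95% interval -4.30 to 1.17) and did not pass (limma adjusted p = 0.419 over 9 classes, exact permutation p = 0.333). Without Control 5 the Control mean was 2.90% ± 2.07 (SD, n = 4) and the difference -0.89 (-2.68 to 0.90, limma adjusted p = 0.45). As a share of all immune cells, myeloid classes included, Prolif Ly were 1.1% ± 0.115 in UUO (n = 2) and 4.11% ± 5.28 in Control (n = 5), a log2 odds difference of -1.21 (-3.31 to 0.89, limma adjusted p = 0.390 over 15 classes), or -0.57 without Control 5 (adjusted p = 0.619). In each of these fits of lymphoid and of immune cells, with or without Control 5, limma called 0% of the classes, where 1 or 2 classes had an unadjusted p under 0.05, and edgeR also called 0 with all samples. Among the libraries over 10000 cells alone the lymphoid difference was -3.13 and passed (limma adjusted p = 6.98e-05), with 2 samples a group, Control 5 among them. In that fit every class received the same variance with 18 degrees of freedom. These count classes as independent, so this p can be too small. The exact test cannot go below 0.333 there.

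Prolif Ly were also counted against single lymphocyte classes. For every 100 cells of the 5 classes CD4 T, Th17, Treg, CD8 T and CD8 effector, UUO 1 and UUO 2 held 1.83 and 1.67 Prolif Ly cells, and the Control samples 1.83, 2.08, 8.54, 9.21 and 44.5. UUO 2 was below every Control sample as pooled, while UUO 1 equalled the pooled Controls 3 and 4 to 3 digits. Before pooling, Control 3 alone held 1.48, below both UUO samples, and Control 4 held 1.99. The log2 ratio, UUO minus Control, was -2.02 on average (exact permutation p = 0.143, unadjusted). Without Control 5 it was -1.36 (exact permutation p = 0.133), with a Control mean of 5.42 ± 4.004 (SD, n = 4) per 100 cells of those T classes.

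Th17 cells, the T helper class that makes interleukin-17, were the only one of the 8 lymphoid classes for which both UUO samples lay below all 5 Control samples. UUO 1 and UUO 2 both held 10.7 Prolif Ly cells per 100 Th17 cells, and the Control samples held 16 to 271, or 16 to 91.3 without Control 5. For CD4 T cells the UUO values of 4.03 and 4.74 lay below 4 of the 5 Control samples, whose lowest was 3.64. For NK cells, which kill without prior priming, UUO held 16.2 and 12.9 against a Control range of 6.25 to 197 and a median of 36.8. For B lymphocytes, the antibody-forming lineage, UUO held 55.9 and 24.8 per 100 cells inside a Control range of 4 to 233. These ratios rest on the numbers of both classes, and Controls 1 and 2 hold only 2 and 7 Prolif Ly cells.

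The only other class named as proliferating, Prolif PT (dividing proximal tubule cells, which line the first stretch of the nephron), was also high in Control 5. It made up 3.27% of the cells there and 0.290% to 0.513% in the other Control samples, against 0.614% in UUO 1 and 0.325% in UUO 2. Per 100 PT cells there were 5.18 Prolif PT cells in Control 5, 0.647 to 0.843 in the other Control samples, and 0.775 and 0.520 in the UUO samples. Control 5 thus stood above the other Controls in both proliferating classes.

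Control 5 also differed in the state of the Prolif Ly cells themselves. The mitochondrial percentage is the share of a cell's UMIs that come from the mitochondrial genome, and it is known to be high in damaged cells and in cells rich in mitochondria. The median in Prolif Ly was 29.6% in Control 5, with an interquartile range of 11.3 to 38.5. It was 1.08% in Control 1, 1.24% in Control 2, 1.22% in Control 4, 3.59% in Control 6, 2.07% in UUO 1 and 2.35% in UUO 2. The 2 cells of Control 3 had a median of 15.3%, since 1 of them reached 29.3%.

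At or above 10% were 88 of the 114 cells of Control 5 (77.2%) and 6 of the 114 cells of all other libraries together (5.26%). In Control 5, 21 cells lay under 5%, 5 from 5% to 10%, 11 from 10% to 20%, 21 from 20% to 30%, 32 from 30% to 40% and 24 from 40% up to the limit near 50% above which the table holds no cells. High values thus filled the range up to that limit.

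The other lymphocytes of Control 5 together had a lower level. Their median was 5.05%, and 89 of 428 cells (20.8%) were at or above 10%. The exception was Treg, regulatory T cells that restrain immune responses, with a median of 30.3% and 27 of 37 cells at or above 10%; without them the share among the other lymphocytes was 15.9%. Outside the lymphoid classes, neutrophils of Control 5 (Neutro, short-lived phagocytes, chosen here after their values were seen) had a median of 34.2%, and 156 of 201 cells (77.6%) were at or above 10%. High values in these classes were not confined to Control 5. Treg of Control 6 had a median of 24.6%, with 26 of 33 cells at or above 10%. Treg medians outside Controls 5 and 6 were 1.78% to 4.996%. Neutrophils of Control 4 had a median of 27.4%, with 17 of 31 cells at or above 10%. Neutrophil medians outside Controls 4 and 5 were 1.87% to 5.70%. Prolif Ly stayed low in these libraries, at 3.59% in Control 6 and 1.22% in Control 4. Prolif PT cells of Control 5 had a median of 11.8%. In the other 5 libraries with at least 5 Prolif Ly cells (Controls 2, 4 and 6 and both UUO samples), Prolif Ly had the lowest median of all the lymphoid classes compared, while in Control 5 it ranked 2 of 9 from the top.

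Between the groups, the sample medians of at least 20 cells were 2.21% ± 0.193 in UUO (n = 2) and 16.6% ± 18.4 in Control (n = 2, Controls 5 and 6). The difference of -14.4 percentage points (95% interval -42.1 to 13.3) did not pass (limma adjusted p = 0.887; limma called 0% of the 19 classes tested, 0 with an unadjusted p under 0.05). It rested on Control 5: against Control 6 alone it was -1.38 (adjusted p = 0.947), and against Control 5 alone -27.4 (adjusted p = 0.0274), where the lone Control library is assumed to vary like the UUO libraries.

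**Figure D2:**
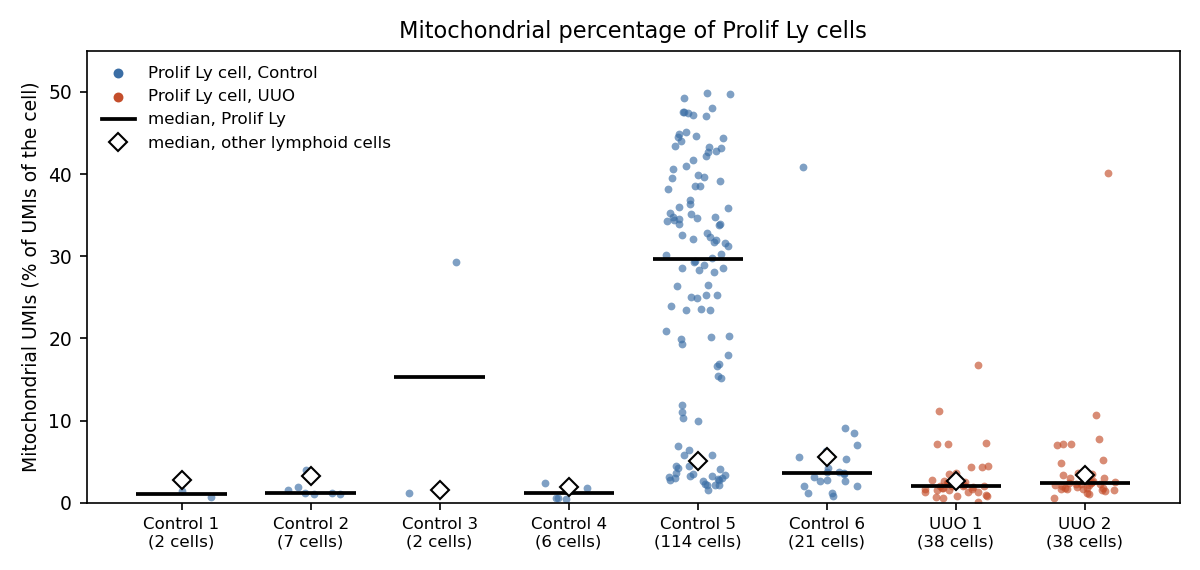
Mitochondrial UMIs as a percentage of all UMIs (vertical axis) in every Prolif Ly cell, by library; dots are cells, black lines Prolif Ly medians and white diamonds the medians of the other lymphoid cells. Control 5 has its median at 29.6% and 88 of 114 cells at or above 10%, against 6 of 114 cells in the other libraries.

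Most of the excess in Control 5 lay in these cells. When a limit of 10% mitochondrial UMIs was set for immune cells, chosen after the data were seen, Control 5 held 26 Prolif Ly cells in place of 114. Its share of all cells was then 0.165%, beside 0.0559% to 0.148% in the other Control samples and 0.198% and 0.288% in UUO 1 and 2. Both UUO samples then lay above all 5 Control samples, with means of 0.243% ± 0.0638 (SD, n = 2) and 0.118% ± 0.0420 (SD, n = 5). The limit took out 88 Prolif Ly cells of Control 5 and 6 of all other libraries. It was set with this known, so the order is no separate support.

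The log2 odds difference under that limit was 1.01 (95% interval -0.60 to 2.61). The exact permutation p was 0.0476, unadjusted and the smallest that 5 against 2 samples can give, and limma did not call it (adjusted p = 0.266). As a share of lymphoid cells, Control 5 then held 7.12%, Control 6 6.41%, Control 2 4.43%, Control 1 1.22% and the pooled Controls 3 and 4 1.06%, against 1.45% and 1.34% in the UUO samples. The lymphoid difference kept its sign at -1.26 (limma adjusted p = 0.397). When the limit was set for every class, not only for immune cells, the difference in shares of all cells was 1.09 (limma adjusted p = 0.276, exact permutation p = 0.190).

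Prolif Ly cells carried more RNA than other lymphocytes. Within libraries the Prolif Ly median was 2.47 to 5.99 times that of the other lymphocytes in UMIs, and 1.96 to 3.95 times in genes, across the 6 libraries with at least 5 Prolif Ly cells. In each of those 6 libraries Prolif Ly had the highest median UMIs and genes of the lymphoid classes compared. Among all classes, tubular ones included, Prolif Ly ranked 1 in median UMIs in Controls 2 and 4 (7 and 6 cells), 2 in Control 6, UUO 1 and UUO 2, and 3 in Control 5. The next lymphoid class was Th17 in both UUO samples, at 2650 and 3065 UMIs against 5233 and 5827 in Prolif Ly. The classes were formed from the genes of these same cells, so the contrast between classes is described without a test.

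Prolif Ly also led without mitochondrial molecules. Counting only UMIs outside the mitochondrial genome, the ratio to other lymphocytes was 2.03 in Control 5, 2.94 in Control 6, 2.55 in UUO 1 and 2.83 in UUO 2. In Control 5 the 26 cells under 10% had a median of 5468 such UMIs and the 88 cells at or above it 3202.

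Gene numbers were also compared at matched depth. Each Prolif Ly cell was set beside other lymphocytes of its library whose UMIs lay within 10% of its own, which was possible for 36 of 38 cells in UUO 1, 36 of 38 in UUO 2, 79 of 114 in Control 5 and 13 of 21 in Control 6. Prolif Ly then showed a median of 1.07, 1.09, 1.06 and 1.24 times as many genes, and 29, 29, 54 and 12 of those cells exceeded the median of their matched lymphocytes. Whether the matched lymphocytes leaned to the lower side of the 10% window was not checked. Ratios of 1.06 to 1.09 are no larger than that window. Matched on UMIs outside the mitochondrial genome, an alternative added after the data were seen, the ratios were 1.06, 1.08, 1.25 and 1.15 over 34, 35, 95 and 10 cells. The kind of match mattered in Control 5: for its cells at or above 10% mitochondrial UMIs the ratio was 1.03 on all UMIs and 1.29 on the others, and for those under 10% it was 1.11 and 1.04.

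The deposited table ends at 2998 genes per cell, and part of Prolif Ly lay close to that edge, while the class median was 1843 genes. Of its cells, 40 of 228 (17.5%) had at least 2500 genes, against 18 of 7318 (0.246%) of the other lymphocytes. Such a share was not particular to Prolif Ly, which ranked 2 among all 28 classes, and Prolif PT held 10.6%. In UUO 1 and UUO 2 the share was 18.4% each, in Control 5 15.8% and in Control 6 9.52%, and 4 of the 7 cells of Control 2 were in this range. Cells beyond the edge are not in the table, so their number in this class was not measured.

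No difference in depth between the groups was called. Median UMIs of Prolif Ly were 5233 in UUO 1, 5827 in UUO 2, 5269 in Control 5 and 4177 in Control 6, the 4 samples with at least 20 such cells. UUO 2 was the highest, while UUO 1 lay below Control 5, so the groups overlapped. The means were 5530 ± 420 in UUO (n = 2) and 4723 ± 772 in Control (n = 2), a ratio of 1.18 with a 95% interval of 0.725 to 1.91 (limma adjusted p = 0.548; 10.5% of the 19 classes tested were called).

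Median genes were 1836 and 2085 in the UUO samples, above 1728 in Control 5 and 1465 in Control 6. The ratio of 1.23 (0.839 to 1.8) did not pass (limma adjusted p = 0.366; 5.26% of classes called), and the exact permutation p of 0.333 is the smallest that 2 against 2 can give. Without Control 5, which left Control 6 as the only Control sample, the ratios were 1.32 for UMIs and 1.34 for genes. Relative to the other lymphocytes of the same library, which removes library depth, the log2 UMI ratio of Prolif Ly differed by -0.09 (UUO minus Control, exact permutation p = 0.667). Against Control 6 alone it differed by -0.14.

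**Figure D3:**
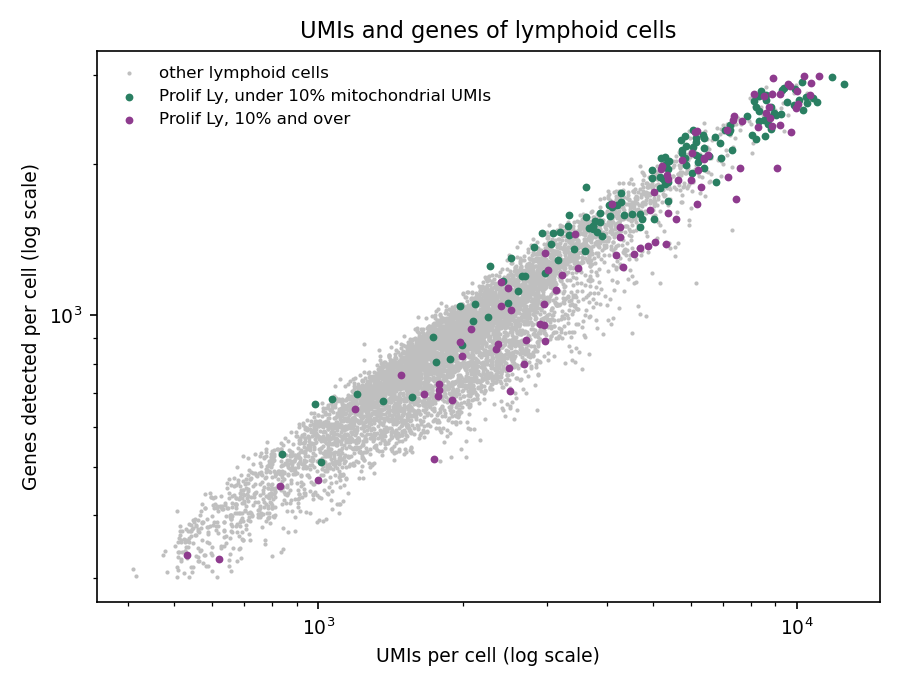
UMIs per cell (horizontal, log scale) against genes detected per cell (vertical, log scale) for 7318 other lymphoid cells (grey) and the 228 Prolif Ly cells, coloured by whether their mitochondrial percentage is under 10%. Prolif Ly cells lie mostly at the upper right, where 40 of them have 2500 genes or more against 18 of the other lymphoid cells.

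The deposited embedding, a 2-dimensional UMAP map in which cells with similar expression are drawn near each other, placed most Prolif Ly cells away from the other lymphocytes. Coordinates were deposited for 25200 cells, which leave out the class PT, so positions and nearest cells refer to the 27 classes that remain, Prolif Ly among them. Of the 228 cells, 217 lay within 1 map unit of the class's median position, in the company of 11 Prolif PT cells, all from Control 5, 4 NK cells and 1 CD4 T cell. For 180 cells (78.9%) all 10 nearest cells were of the class itself. The nearest of these classes by median position was Prolif PT, 1.92 units away, then Profibrotic Tubules at 4.30 and B lymphocytes at 4.61; the T cell classes lay at 7.89 (Th17) to 12.1 (CD8 effector). Distances on such a map have no unit and do not scale with expression.

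Outside that radius were 11 cells, 5 from UUO and 6 from Control samples, with a median position of -5.24 and -2.01 on the map's axes, among the T cells. The nearest cell of another class was a Treg for 6 of them, a Th17 cell for 4 and a CD4 T cell for 1. Their medians of 4043 UMIs and 1581 genes were also above those of the T cell classes as a whole, and 1 of the 11 was at or above 10% mitochondrial UMIs.

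Over the whole class the nearest cell of another class was CD4 T for 133 cells (58.3%), Prolif PT for 53 (23.2%), NK for 32 (14.04%), Treg for 6 and Th17 for 4. Since only 1 CD4 T cell and 4 NK cells lay within the radius, the counts for these classes go back to those 5 cells, 4 of them from UUO samples, or to cells outside the radius. A nearest Prolif PT cell was found for 48 of 114 cells in Control 5 (42.1%) and for 5 of 114 in all other libraries (4.39%).

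Cells with many mitochondrial UMIs lay in both parts of the Prolif Ly group. An arm of the group reached toward Prolif PT, and with a line at -4.9 on the second axis, drawn after the map was seen, it held 60 cells, 52 of them from Control 5. Within Control 5, 49 of the 52 cells in the arm (94.2%) were at or above 10% mitochondrial UMIs, with a median of 35.2%, and 38 of the 60 cells at or below the line (63.3%), with a median of 19.8%. In the other libraries 1 of 8 cells in the arm and 5 of 97 at or below the line were at or above 10%. Median genes in Control 5 were 1441 in the arm and 1916 at or below the line.

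Prolif PT was the nearest other class for 47 of the 52 arm cells of Control 5, for 5 of the 8 arm cells of other libraries, and for 1 of the 157 cells at or below the line. The arm was drawn as the part that reaches toward Prolif PT, so these counts follow in part from that choice. Within Control 5 it was nearest for 45 of the 88 cells at or above 10% (51.1%) and for 3 of the 26 below that level (11.5%). The part of mitochondrial content, or of Prolif PT numbers in Control 5, in these positions was not tested.

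The groups overlapped in position. Sample medians on the 2 axes were 3.004 and -5.13 in UUO 1, 2.93 and -5.16 in UUO 2, 3.03 and -5.01 in Control 5, and 2.93 and -5.10 in Control 6. The distance between group means was 0.0911 units (exact permutation p = 0.667, where 2 against 2 samples allow 0.333 at the least). From Control 6 alone it was 0.0556.

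**Figure D4:**
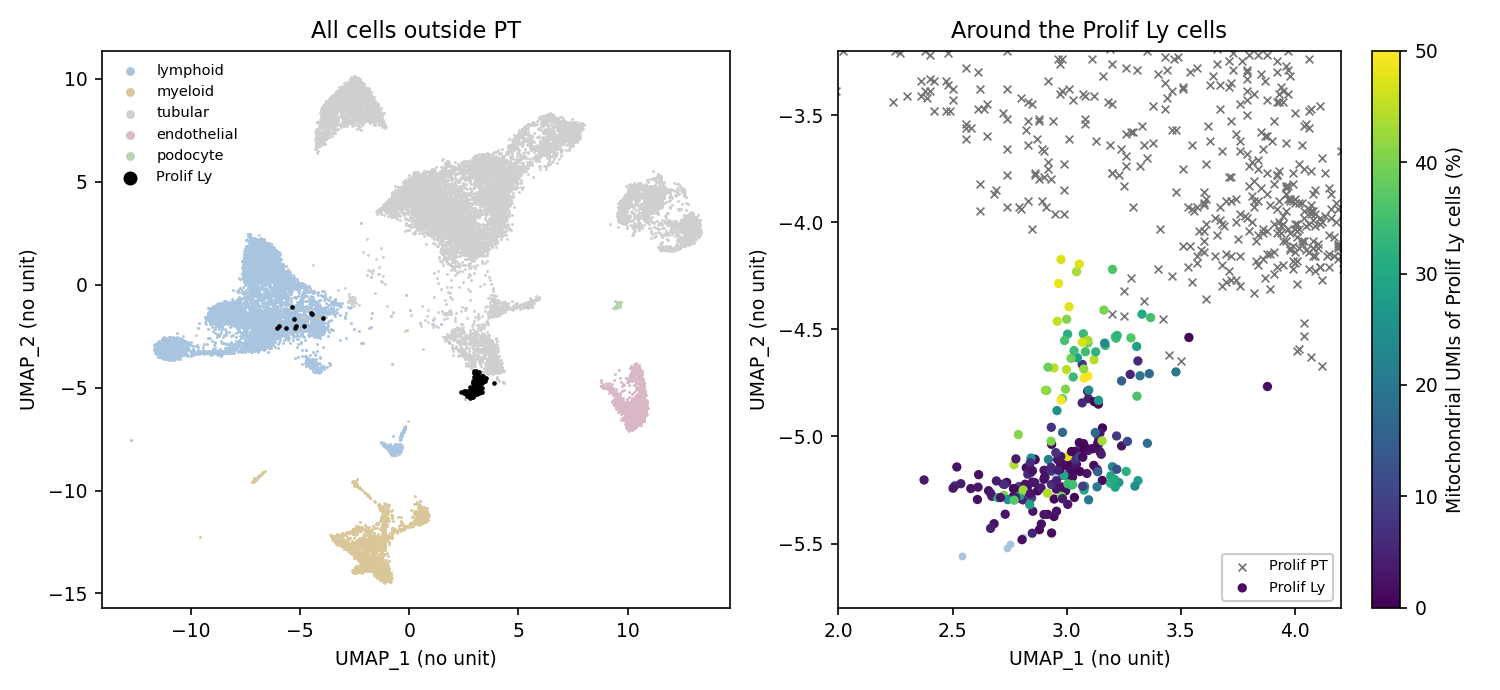
Deposited UMAP of the cells outside the class PT (axes without unit). Left, all such cells by compartment, with Prolif Ly in black; right, an enlarged view with Prolif Ly coloured by mitochondrial percentage and Prolif PT as crosses. Of the Control 5 cells, the 52 above -4.9 on the vertical axis have a median of 35.2% mitochondrial UMIs and the 60 at or below it 19.8%, so high values occur on both sides of that line.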

How the data were processed

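The submitters' processing notes name Cell Ranger (6.0.1), Seurat (4.0.1) and the mm10 build without their roles. The filters on cells and the rule for naming classes are not stated in the labels or headers. The headers give the deposited UMIs and genes as RNA counts and features per cell, and do not state that they are raw. A cell's mitochondrial UMIs, taken from its percentage, were a whole number in 100% of cells (tolerance 0.001). The deposited mitochondrial percent is of a cell's UMIs, and the deposited UMAP coordinates are a score with no unit, given for 25200 cells. Class and sample names were used as the authors gave them; 0 per-sample columns were left out, and no doublet caller was run.

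Lymphoid (9) and immune (15) classes were taken by name. Shares per sample were fitted on log2((n + 0.5)/(N - n + 0.5)) with limma 3.58.1 in R 4.3.3 over all classes of the denominator, and sample medians of at least 20 cells over 19 classes, with Benjamini-Hochberg adjustment and a threshold of 0.05. In the fit of all cells every class received the same variance with 140 degrees of freedom, which count classes as independent, so its intervals can be too narrow. The same holds, with 18 degrees of freedom, for the lymphoid fit among the libraries over 10000 cells. Single values had two-sided exact permutation tests over samples. edgeR 4.0.16 on cell numbers was an alternative. The fits were run on simulated data, in which every class had the same spread and changes were larger than those of Prolif Ly. That run does not bear on a class with 1 outlying sample. The text names Prolif Ly, the 8 other lymphoid classes, Prolif PT with PT, and classes nearest to at least 5% of the members; Profibrotic Tubules and Neutro were added after their values were seen, and classes above Prolif Ly in UMIs or genes are given by rank only. Members, lists and tests were chosen with earlier results of these data known. In the smallest library 0 cells would allow a share of up to 0.133% (3 counts, counting error only).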

Additional observations from a re-analysis of the deposited data

Results flagged for a closer look

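Control 5 was far from the other Control samples in 6 of the 8 measures checked by Dixon's test for a single outlying sample, where chance gives about 1 in 20. These were the Prolif Ly share, at 0.705% of all cells, 13.4% of immune and 21.03% of lymphoid cells, Prolif Ly per 100 cells of the T cell classes (44.5), the median mitochondrial percentage of Prolif Ly (29.6%) and the Prolif PT share of all cells (3.27%). The 4 measures of Prolif Ly abundance share their numerator, so they are not separate observations. Median UMIs and genes of Prolif Ly were the measures without such a gap.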

How the results depend on the processing

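Of 127 alternative values over the 8 results, 123 kept the sign of the result and its side of the threshold. Part of this agreement was fixed in advance. UMIs relative to other lymphocytes and map position had only exact permutation tests. Their smallest p was 0.333 for 2 against 2 samples and 0.0667 for 4 against 2, so none could pass. Position is a distance without a sign. For UMIs, genes and mitochondrial percentage, Controls 1 to 4 fell under the minimum of 20 cells. Leaving them out, counting 3 and 4 apart or keeping libraries over 10000 cells therefore returned the same difference. The share of all cells changed sign with TMM scaling (-0.30) and among the libraries over 10000 cells (-0.42). The share of lymphoid cells passed only among those libraries (-3.13), in a limma fit that gave every class the same variance. Leaving out each sample in turn moved the mitochondrial difference from -27.4 (without Control 6, called) to -1.38 (without Control 5), and left the other results without a call. With the sample number as a replicate block the log2 odds differences were 1.47 for all cells, -0.43 for immune and -0.86 for lymphoid cells, none called. The calls over all classes went from 14 to 11, 0 to 7 and 0 to 2. These differences come only from UUO 1 against Control 1 and UUO 2 against Control 2, since the other Controls share no number with UUO. They therefore leave out Control 5 and rest on Controls with 2 and 7 Prolif Ly cells. Between the deviations of samples numbered alike, r over 28 classes was -0.33 for number 1 and 0.06 for number 2. With only 2 UUO samples their deviations mirror each other, so these values cannot show whether samples are paired. No blocked fit was possible for UMIs, genes and mitochondrial percentage, where no Control library with enough cells shares a number with UUO. With a minimum of 5 cells, an alternative added after seeing the data, the mitochondrial difference was -6.79 and that of log2 UMIs 0.09. Leaving out the cells nearest to Prolif PT, also added later, gave 0.78, -1.02 and -1.38 for the 3 shares. Few cells limit every value: 5 of the 8 libraries hold 2 to 21 Prolif Ly cells.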
